A study of Mus musculus with 3 samples.

Results

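Transcripts of 10 genes that defend cells against superoxide, hydrogen peroxide and lipid peroxides were followed in gastrocnemius muscle of high-fat-fed mice with and without an iron supplement. The set is fixed by gene name, with no threshold on the values: Sod1, Sod2, Cat, Gpx1, Gpx4, Gclc, Gclm, Nqo1, Txnrd1 and Nfe2l2. All 10 were measured, out of 18193 genes in all, by 24 probe sets, a probe set being a group of short probes against 1 transcript. The mice were male C57BL/6J. The HF+SFC group received a diet with 60% of its energy as fat and 0.023% (w/w) sodium ferrous citrate (SFC), the HF group the same 60% fat diet without SFC, and the Control group a diet with 10% of its energy as fat. The paper states that diets began at 6 weeks of age and lasted 15 weeks. The labels state 21 months of age, far older than that schedule gives, and no source used here explains the difference. No group combined the Control diet with SFC. Each group was measured on 1 array, loaded with its samples pooled together. There were thus 3 arrays, no difference has a replicate check, and no test was run. How many animals each mix held is not given in the sources used here.

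Superoxide leaks from the respiratory chain, and superoxide dismutases turn it into hydrogen peroxide. Catalase and the glutathione peroxidases then remove the peroxide, the peroxidases at the expense of glutathione. Ferrous iron turns hydrogen peroxide into the far more reactive hydroxyl radical and drives the chain oxidation of membrane lipids that ends in ferroptosis, an iron-dependent cell death. GPX4 is the enzyme that reduces lipid peroxides within membranes and so stands as the main brake on ferroptosis. NRF2, encoded by Nfe2l2, is the transcription factor that raises many of these genes under oxidative or electrophilic stress. KEAP1 normally holds it for degradation, so NRF2 is controlled mostly at the level of its protein. Skeletal muscle, rich in mitochondria and in the iron of myoglobin, carries both the superoxide source and the iron.

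NRF2 binds antioxidant response elements, whose core is TGACNNNGC (GCNNNGTCA when read on the other strand). Matches are shown because NRF2 is the regulator most often named for genes of this set. RefSeq promoter windows, each running from 250 bases before a transcript start to 50 bases after it, were found for 9 of the 10 genes (14 windows, build GRCm38.p6), Gclc having no entry in the table used. The core occurred in 4 windows, of 4 different genes. Of all 32851 mouse promoter windows 12.4% hold it, and of 27025 genes 14% have it in at least 1 window. The 4 matches are written below in the direction of the gene, 5′ to 3′, with the core in capitals. They lie at chr16:90220691-90220729 (Sod1, plus strand, core at -56 to -48 from the start), chr3:122245408-122245446 (Gclm, plus strand, -134 to -126), chr10:82859099-82859137 (Txnrd1, plus strand, -92 to -84) and chr2:75704880-75704913 (Nfe2l2, minus strand, -240 to -232).
Sod1: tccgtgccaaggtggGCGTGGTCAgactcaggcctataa
Gclm: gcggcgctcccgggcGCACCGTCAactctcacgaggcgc
Txnrd1: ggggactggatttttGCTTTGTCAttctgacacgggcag
Nfe2l2: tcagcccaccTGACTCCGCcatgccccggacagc
A match describes letters and not binding. Such elements also lie farther upstream than these windows reach.

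The authors' values are MAS5 signals, linear intensities scaled to a common trimmed mean per array. Median signals over the 45101 probe sets were 68.03 for HF+SFC, 67.39 for HF and 63.63 for Control. Each gene is given by its brightest probe set, the one with the highest mean log2 signal. The 3′ to 5′ signal ratio of the beta-actin control, a sign of RNA integrity, was 1.15 for HF+SFC, 1.52 for HF and 1.09 for Control, and that of Gapdh was 0.820 for HF+SFC, 0.832 for HF and 0.842 for Control. All 4 markers of muscle and all 15 of fast and slow fibres were strong on every array. Adipocyte markers (5 of 7 measured) summed to 29459 for HF+SFC, 32800.1 for HF and 22938 for Control. Fabp4 made up most of each sum, with 25306 for HF+SFC, 26497 for HF and 21626 for Control. All 5 were higher for HF than Control, by a median of 4.33-fold. For HF+SFC against HF 4 were lower and 1 higher, with a median ratio of 0.654. Hepatocyte markers were near background, with sums of 94.5 for HF+SFC, 169.9 for HF and 106 for Control. As muscle was taken whole, fewer cells of a type and less RNA per cell cannot be told apart.

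Both intracellular superoxide dismutases gave strong signals that differed little between the diets. Sod1, which encodes the copper and zinc enzyme of the cytosol (probe set 1451124_at), had a signal of 14041 for HF+SFC, 13175 for HF and 14907 for Control. HF was lowest, with a ratio of 0.884 to Control, and HF+SFC stood at 1.07 times HF. A further Sod1 probe set of like strength, which can bind several transcripts, read 10925 for HF+SFC, 13621 for HF and 13272 for Control. There HF was highest and HF+SFC lowest (0.802 of HF), so the direction of Sod1 depended on the probe set. The remaining 3 Sod1 probe sets were weaker, 2 of them below the median signal, and read higher for HF than for either other array. Sod2, the manganese enzyme of the mitochondrial matrix (1417193_at), had a signal of 12846 for HF+SFC, 11379.5 for HF and 12110.5 for Control. Its ratios were 1.13 for HF+SFC to HF and 0.940 for HF to Control, and 2 of its other 3 probe sets ran the same way. The exception, an alternative-transcript probe set, read 9093 for HF+SFC, 9730.3 for HF and 8698 for Control. All 4 Sod2 probe sets were slightly higher for HF+SFC than for Control, by 1.02- to 1.08-fold.

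On the brightest probe set Cat was the only 1 of the 10 genes whose signal was highest for HF. Cat encodes catalase, the heme enzyme of peroxisomes that splits hydrogen peroxide. Its signal (1416429_a_at) was 7900.4 for HF+SFC, 8730.2 for HF and 7109 for Control. HF stood 1.23-fold above Control, and HF+SFC lay between them at 0.905 of HF. The other Cat probe set repeated this order with 4511 for HF+SFC, 5086 for HF and 4126 for Control, again 1.23-fold for HF to Control and 0.887 for HF+SFC to HF. Gpx1, the abundant cytosolic and mitochondrial glutathione peroxidase, went the other way. Its only probe set (1460671_at) gave 4529.9 for HF+SFC, 4503 for HF and 4911 for Control. Both high-fat arrays thus lay at 0.922 (HF+SFC) and 0.917 (HF) of Control, with almost nothing between them.

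Gpx4, the lipid peroxide reductase on which ferroptosis defence turns, was nearly level, with its highest signals on the Control array. Its brightest probe set (1456193_x_at, of a type that can cross-hybridise) read 18447 for HF+SFC, 17181 for HF and 18970 for Control. The ratios were 0.906 for HF to Control, 1.07 for HF+SFC to HF and 0.972 for HF+SFC to Control. Its other probe set read 11908 for HF+SFC, 12263.5 for HF and 12840 for Control. Both probe sets therefore put the high-fat arrays below Control by less than 10%, while they differed on whether HF+SFC was above HF (1.07) or below it (0.971).

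**Figure D1:**
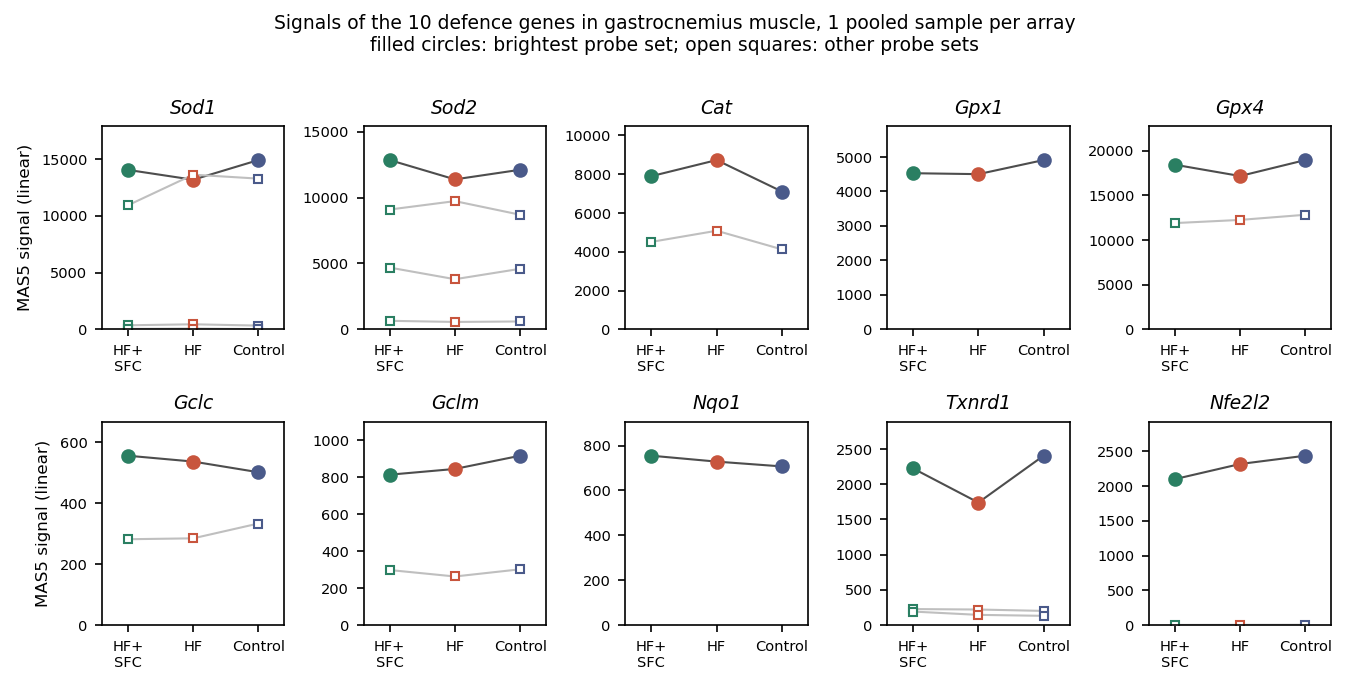
MAS5 signal (linear axis from 0) of each of the 10 genes on the HF+SFC, HF and Control arrays, with filled circles for the brightest probe set and open squares for the others. Lines join the 3 values of a probe set, and the axis differs between genes. On the brightest probe set Txnrd1 has the widest span in fold terms (1.38), with 2225 for HF+SFC, 1741 for HF and 2407 for Control. Both probe sets of Cat are highest for HF.

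The glutathione-making ligase, glutamate-cysteine ligase, joins a catalytic subunit (Gclc) to a modifier subunit (Gclm) and sets the pace of glutathione synthesis. Gclc (1455959_s_at) had a signal of 556 for HF+SFC, 537 for HF and 502 for Control, 1.07-fold for HF to Control and 1.04-fold for HF+SFC to HF. Its second probe set, which binds a single transcript, read 282 for HF+SFC, 285 for HF and 333 for Control. On that one HF was below Control, at 0.854. Gclm (1418627_at) read 813 for HF+SFC, 844 for HF and 916 for Control, so that HF lay at 0.922 and HF+SFC at 0.888 of Control. Its second probe set also put both high-fat arrays below Control, with 297 for HF+SFC, 262 for HF and 301 for Control. Neither subunit was 1.5-fold apart between any pair of arrays on either probe set.

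Among the 10 genes Txnrd1 varied most in fold terms on the brightest probe set, while Nqo1, another NRF2 target, was almost level. Nqo1 encodes a quinone reductase and is widely used as a readout of NRF2 activity. Its single probe set (1423627_at) gave 755 for HF+SFC, 729 for HF and 707 for Control, that is 1.03-fold for HF to Control and 1.04-fold for HF+SFC to HF. Txnrd1 encodes the cytosolic thioredoxin reductase, a selenoprotein that keeps thioredoxin reduced. Its signal (1421529_a_at) was 2225 for HF+SFC, 1741 for HF and 2407 for Control. HF stood alone at the low end, 0.723 of Control (log2 ratio -0.47), whereas HF+SFC was 1.28 times HF (log2 ratio 0.35) and 0.925 of Control. Among the 4548 genes with a mean signal above the 75th percentile over genes (826), the log2 ratio of Txnrd1 lay at percentile 1.78 for HF against Control and 98.3 for HF+SFC against HF. These ranks share the HF array and are not separate evidence. The other 2 Txnrd1 probe sets were weaker and read 227 and 191 for HF+SFC, 220.3 and 144 for HF, and 200.5 and 130.4 for Control. They put HF+SFC above HF, as the brightest did (1.03- and 1.32-fold), but put HF above Control, by 1.10- and 1.11-fold. The low HF signal of Txnrd1 relative to Control was thus seen on 1 of its 3 probe sets.

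Nfe2l2, the transcript of NRF2 itself, had a signal (1416543_at) of 2099 for HF+SFC, 2317 for HF and 2436 for Control. HF+SFC was lowest and Control highest, with ratios of 0.906 for HF+SFC to HF, 0.951 for HF to Control and 0.862 for HF+SFC to Control. Its other probe set was close to background, at 1.40 for HF+SFC, 2.37 for HF and 3.64 for Control, where ratios carry little weight. The transcript says nothing of NRF2 protein, which was not measured on these arrays. Of the 4 genes with the core motif printed above, Sod1, Gclm, Txnrd1 and Nfe2l2, all read lower for HF than for Control on the brightest probe set (log2 ratios -0.18, -0.12, -0.47 and -0.07), as did 3 of the 6 others, of which Gclc had no window to search. The direction does not carry over to the other probe sets of Sod1 and Txnrd1, all of which read higher for HF than for Control. Of the 4548 genes above the 75th percentile of signal 2577 were lower for HF as well. All 4 genes with the motif lie above that percentile, whereas Gclc and Nqo1, both among the others, do not. Only the Txnrd1 ratio exceeded 0.26, the SD of the difference between 2 probe sets of 1 gene described below. Whether the motif has a part in these values was not tested. For HF+SFC against HF the same 4 genes split evenly, Sod1 and Txnrd1 being higher (0.09 and 0.35) and Gclm and Nfe2l2 lower (-0.05 and -0.14).

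Set against HF, the HF+SFC array had higher signals for 7 of the 10 genes and lower signals for 3, with a median log2 ratio of 0.05. Without probe sets open to several transcripts, which leaves 8 genes, the split was 4 higher and 4 lower. None of the 10 reached 1.5-fold in either direction. Over all genes 13.7% passed 1.5-fold upwards and 13.5% downwards, mostly dim ones, and among the 4548 genes above the 75th percentile of signal the shares were 0.088% and 0.352%. As 8 of the 10 genes lie above that percentile (not Gclc and Nqo1) and all 10 above the gene median of 159.9, the second background is the closer one, and beside it a count of 0 of 10 is no result about these genes. Set against Control, the HF array had 3 higher and 7 lower, with a median of -0.10 and 0 of 10 past 1.5-fold. The background was 17% higher and 12.2% lower over all genes, and 1.08% and 0.923% among those above the percentile. For HF+SFC against Control 4 were higher and 6 lower (5 and 5 with the mean of all probe sets, 2 and 8 with each array centred on its median), with a median of -0.06 and again 0 of 10 past 1.5-fold, where the background was 16.5% and 12.4% over all genes and 0.594% and 0.748% above the percentile. The HF array enters the first and second of these comparisons with opposite sign, so their directions are tied to each other. Genes above the percentile had medians of 0.02 (HF+SFC against HF), -0.03 (HF against Control) and -0.00 (HF+SFC against Control), with SDs over genes of 0.16, 0.23 and 0.20. Of those genes 55.8% were higher for HF+SFC than HF, 43.3% for HF than Control and 49.6% for HF+SFC than Control. The splits of the 10 genes in the first 2 comparisons leaned the same way, so neither split is a result about these genes.

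**Figure D2:**
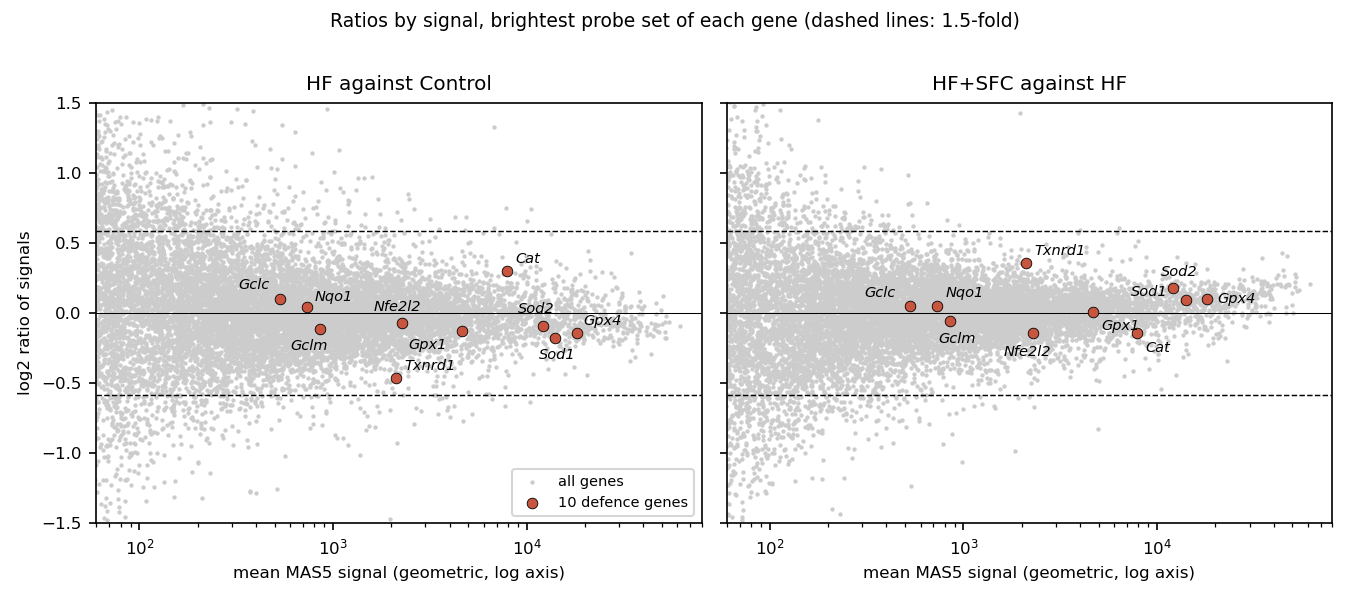
Log2 ratio of signals (vertical) against the geometric mean MAS5 signal over the 3 arrays (horizontal, log axis), brightest probe set of each gene, for HF against Control and HF+SFC against HF. Grey points are all genes inside the axis limits, red points the 10 defence genes, and dashed lines mark 1.5-fold. All 10 lie between the dashed lines, with Txnrd1 lowest at -0.47 in the first panel and highest at 0.35 in the second.

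The disagreement between probe sets of 1 gene gives a technical yardstick, which holds no variation between animals or between arrays of 1 group. For 2468 genes with a pair of probe sets above the 75th percentile over probe sets (a signal of 384), the log2 ratios of the pair differed with an SD of 0.23 for HF+SFC against HF, 0.26 for HF against Control and 0.22 for HF+SFC against Control. Only the ratios of Txnrd1 in the first comparison, and of Cat and Txnrd1 in the second, exceeded these. For every other gene the neighbouring arrays in its order of signal lay closer than 1 such SD. A difference of 2 ratios spreads more widely than 1 ratio if their errors are independent. The yardstick is therefore wide for a single ratio, and a ratio below it is not shown to be level. The 14 remaining probe sets of the 10 genes shared the direction of the brightest in 6 cases for HF+SFC against HF, 6 for HF against Control and 9 for HF+SFC against Control. Of 7 genes with at least 2 probe sets above the median over probe sets (a signal of 60.9), all such probe sets pointed the same way for Cat and Txnrd1 (HF+SFC against HF), for Cat, Gpx4 and Gclm (HF against Control) and for Sod2, Cat, Gpx4 and Gclm (HF+SFC against Control). Cat was the single gene of the 7 with 1 direction throughout.

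**Figure D3:**
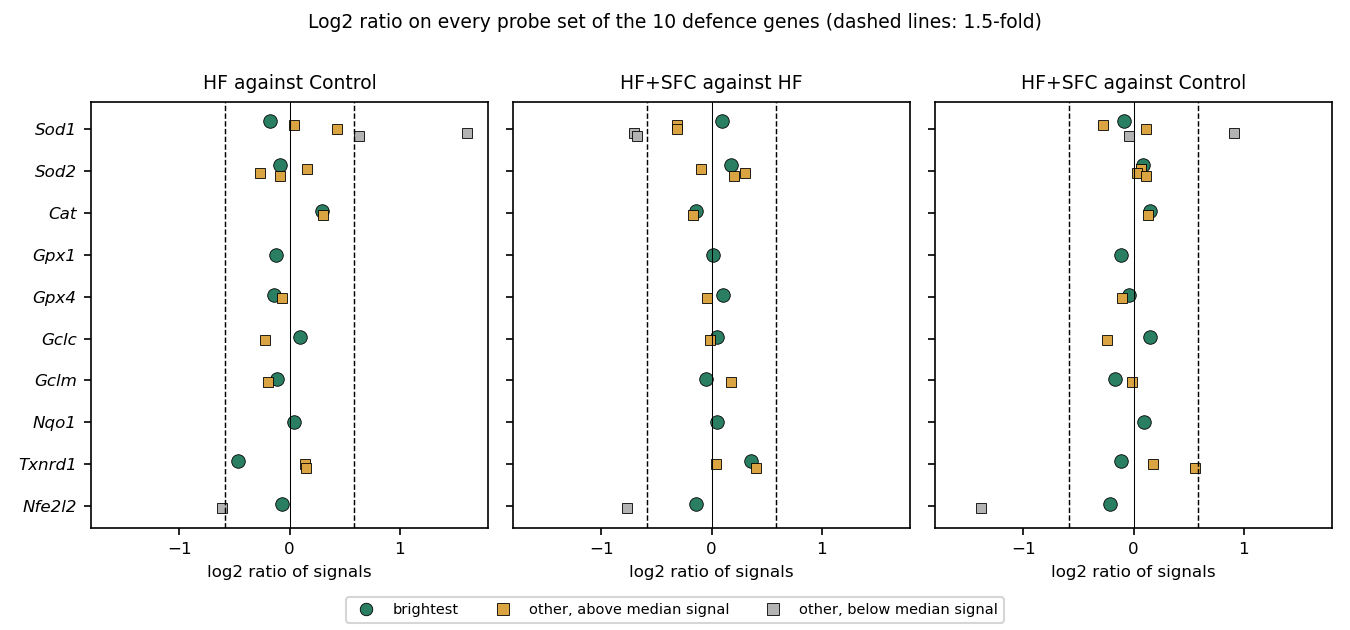
Log2 ratio of signals on each of the 24 probe sets of the 10 genes in 3 comparisons, green circles for the brightest probe set, amber squares for others above the median signal over probe sets (60.9) and grey squares for those below it. Dashed lines mark 1.5-fold. Beyond 1.5-fold lie only grey squares, of Sod1 and Nfe2l2, and the 2 probe sets of Cat fall together in every panel.

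On the brightest probe set HF gave the lowest of the 3 signals for 5 of the 10 genes, Sod1, Sod2, Gpx1, Gpx4 and Txnrd1. Among the 4548 genes above the 75th percentile HF was lowest for 41.0%, and among all genes for 34.0%, so that 5 of 10 is close to the background. HF was not lowest on any other probe set of Sod1, Gpx4 or Txnrd1, nor on 1 of those of Sod2. The markers of muscle and of both fibre types read lowest for HF in 19 of 19 cases. Slow fibre markers summed to 73549 for HF+SFC, 56996 for HF and 78302 for Control, and fast fibre markers to 414007 for HF+SFC, 353862 for HF and 387859 for Control. The HF array also had the highest beta-actin 3′ to 5′ ratio (1.52) and the highest adipocyte sum, given above. The part of these in the low HF values of the 5 genes was not tested.

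Beyond the 10 genes, 120 others of the same pathways were listed by role and 114 were measured. At least 1.5-fold higher for HF+SFC than HF were 5 (4.39%) and lower 2 (1.75%), for HF against Control 4 (3.51%) and 4 (3.51%), and for HF+SFC against Control 3 (2.63%) and 3 (2.63%). Over all genes the shares were 13.7% and 13.5%, 17% and 12.2%, and 16.5% and 12.4% in the same order. Among the 62 with a signal above the 75th percentile there was none at 1.5-fold between HF+SFC and either other array, and 2 lower (3.23%) for HF than for Control, Gpx3 and Gstm1, where the share of all genes above the percentile was 0.923%. Their medians were near 0, like those of the 10 genes.

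Between HF and either other array, the ratios farthest from 1 in the superoxide and peroxide families were those of the secreted Sod3 and Gpx3. Sod3 lay below the 75th percentile of signal (826), and dimmer genes spread more widely. For HF against Control 17% of all genes were at least 1.5-fold higher, but 1.08% of those above the percentile. Sod3, the secreted superoxide dismutase of vessel walls and matrix, read 279 for HF+SFC, 465 for HF and 240 for Control, 1.94-fold for HF to Control and 0.600 for HF+SFC to HF. Its second probe set read 136 for HF+SFC, 206 for HF and 83.6 for Control (2.46 and 0.662), in the same direction. Gpx3, the secreted glutathione peroxidase, had the opposite order with 5525 for HF+SFC, 3951 for HF and 6501 for Control, 0.608 for HF to Control and 1.40 for HF+SFC to HF. The median log2 ratio of adipocyte markers was 2.12 for HF against Control and -0.61 for HF+SFC against HF. Fibroblast markers were higher for HF than Control in 6 of 6 cases (median 0.50) and lower for HF+SFC than HF in 4 of 6 (median -0.06). Col1a1, a collagen chain, stood farthest from 1, at 1.95- and 0.709-fold. The others were nearer, with Col1a2 at 1.68 and 0.925, Col3a1 at 1.48 and 0.902 and Lum at 1.36 and 0.994. Pdgfra (1.03 and 1.06) and Dcn (1.04 and 1.08) were almost level. Leukocyte markers, of which 4 of 8 were above the gene median signal, were higher for HF than Control in 7 of 8 cases (median 0.33). For HF+SFC against HF 3 were higher and 5 lower (median -0.03). Endothelial markers were 3 higher and 2 lower for HF than Control (median 0.04), and 2 higher and 3 lower for HF+SFC than HF (median -0.04). The part of these cells in the Sod3 values was not tested. In the peroxide family of 6 genes, which holds Cat, Gpx1 and Gpx4, 3 were higher and 3 lower in every comparison. Gpx8, a peroxidase of the endoplasmic reticulum, had its highest ratios to Control, 1.28 for HF+SFC and 1.37 for HF.

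In the thioredoxin system 15 of 18 listed genes were measured. None of them reached 1.5-fold. The shares past it were 0.088% to 1.08% among genes above the 75th percentile of signal, and 12.2% to 17% over all genes. As the list mixes strong and dimmer genes, the count is no result about the system. Txnrd2, the mitochondrial relative of Txnrd1, read 730 for HF+SFC, 494 for HF and 541 for Control (1.48-fold for HF+SFC to HF), with its other 3 probe sets divided in direction. For HF against Control 11 of the 15 were lower and 4 higher, Txnrd1 being the lowest of all. Genes above the 75th percentile of signal leaned the same way, 43.3% of them being higher. Txnrd3 was highest for HF against Control (1.19-fold) and lowest for HF+SFC against HF (0.816). Its other probe sets read 0.862 and 0.982 for HF to Control, and 1.10 and 0.821 for HF+SFC to HF. Txn2, the mitochondrial thioredoxin, was lowest for HF+SFC against Control (0.844). Around glutathione, 20 genes were measured. Gstm1, a glutathione transferase and NRF2 target, read 3655 for HF+SFC, 2638 for HF and 4337 for Control, at 0.608 for HF to Control. Its next probe set ran the same way (2694 for HF+SFC, 2259 for HF and 3062 for Control), while 2 weaker ones did not. Gsr, the reductase that regenerates glutathione, was highest for HF against Control (1.19-fold) and Gstt1, another transferase, for HF+SFC against Control (1.14-fold). Gss, which completes glutathione after the step made by Gclc and Gclm, read 218 for HF+SFC, 319 for HF and 366 for Control, and HF+SFC was at 0.596 of Control. A second Gss probe set gave 154 for HF+SFC, 206 for HF and 165 for Control.

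The NRF2 regulator list, 12 measured genes with Nfe2l2 itself and 11 others, held none at 1.5-fold, again a count that the background makes uninformative. Keap1, the adaptor that directs NRF2 to degradation, read 2217 for HF+SFC, 1939 for HF and 2077 for Control. Its second probe set read 1201 for HF+SFC, 1261 for HF and 1348 for Control. Bach1, a heme-sensitive repressor at the same elements, read 2378 for HF+SFC, 2477.5 for HF and 2996 for Control, and 230 for HF+SFC, 203 for HF and 288 for Control on its second probe set. The direction between HF+SFC and HF thus depended on the probe set for both genes. The highest and lowest ratios of the list above the median signal were those of Gsk3b (1.16) and Mafk (0.822) for HF+SFC against HF, and of Cul3 (1.10) and Btrc (0.771) for HF against Control. The other probe sets of Gsk3b, Cul3 and Btrc were divided in direction in the same comparisons. Of 27 measured NRF2 targets, 14 were higher and 13 lower for HF+SFC than HF, with a median of 0.01, and 13 were higher and 14 lower for HF than Control, with a median of -0.00. Blvrb, a biliverdin reductase, had the highest ratio of HF+SFC to HF above the median signal, 1.49, with 202 for HF+SFC, 135 for HF and 189 for Control. Ephx1, an epoxide hydrolase, read 994 for HF+SFC, 822 for HF and 791 for Control, the highest ratio of HF+SFC to Control (1.26). Tkt, the transketolase of the pentose phosphate pathway, was highest for HF against Control (1.25-fold). Osgin1, a target named for its induction by oxidative stress, was lowest for HF+SFC, at 369 against 540.0 for HF and 560.1 for Control. Hmox1, which encodes the heme-degrading heme oxygenase 1 and was singled out after its values were seen, was below the gene median signal on average and read 88.1 for HF+SFC, 129.5 for HF and 209 for Control. Its ratio of HF+SFC to Control was 0.422. Fth1, the ferritin heavy chain that stores iron in an unreactive form and was likewise singled out, was level at 47211 for HF+SFC, 45958 for HF and 46118 for Control.

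Among 17 measured brakes on ferroptosis, Gpx4 included, 8 were higher and 9 lower for HF+SFC than HF (median -0.04), and the same numbers held for HF against Control (median -0.01). Vkorc1l1, a reductase that makes the antioxidant form of vitamin K, read 813 for HF+SFC, 1055 for HF and 648 for Control, at 1.63-fold for HF to Control, and 702 for HF+SFC, 655 for HF and 529 for Control on its second probe set. Aifm2, which encodes the coenzyme Q reductase FSP1, read 419 for HF+SFC, 396 for HF and 333 for Control, on a probe set that can cross-hybridise. Its other probe sets were highest for HF. One read 286 for HF+SFC, 323 for HF and 255.0 for Control, and the other 199 for HF+SFC, 264 for HF and 254.5 for Control. Other extremes among the brakes were Slc3a2, the partner chain of the cystine importer (0.807 for HF to Control), Cisd1, an iron-sulfur protein of the outer mitochondrial membrane (1.16 for HF+SFC to HF), and Dhcr7, a sterol reductase (0.782 for HF+SFC to Control). Slc7a11, the cystine importer that feeds glutathione synthesis, was dim on the arrays (41.5 for HF+SFC, 10.3 for HF and 9.89 for Control) and its other probe set ran otherwise (3.17 for HF+SFC, 27.3 for HF and 0.721 for Control). Of 18 measured drivers, Acsl4, which loads polyunsaturated fatty acids into phospholipids, read 1967 for HF+SFC, 2357 for HF and 2153 for Control. Ncoa4, the receptor for ferritin breakdown, had the highest ratio above the median signal for HF against Control (1.18) and Lpcat3, which remodels phospholipids, the lowest (0.814), while Pebp1 was highest for HF+SFC against HF (1.12). Chac1, a glutathione-degrading enzyme induced by the integrated stress response, read 6133 for HF+SFC, 7343 for HF and 9002 for Control. The drivers past 1.5-fold between HF+SFC and HF, such as Alox12e and Ptgs2, all had signals below the gene median.

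Of 20 measured selenoproteins, among them Gpx1, Gpx4 and Txnrd1, 14 were higher and 6 lower for HF+SFC than HF (median 0.05), 8 higher and 12 lower for HF than Control (median -0.08), and 10 higher and 10 lower for HF+SFC than Control (median 0.00). Among genes above the 75th percentile of signal 55.8%, 43.3% and 49.6% were higher in the same order. The 7 genes that build selenocysteine and insert it were divided 3 higher to 4 lower, 4 to 3 and 3 to 4. Among these Eefsec, the selenocysteine elongation factor, was lowest against Control, at 0.685 for HF+SFC and 0.687 for HF, and Pstk was lowest for HF+SFC against HF (0.793). Secisbp2 (1.17 for HF to Control), Sephs1 (1.08 for HF+SFC to HF) and Sepsecs (1.17 for HF+SFC to Control) were highest. A second Secisbp2 probe set read 0.985 for HF to Control, and the other Sephs1 probe sets were divided for HF+SFC to HF. Selenof had the highest ratio of HF to Control among the selenoproteins (1.21). Selenoh, a nucleolar selenoprotein, was lowest for HF+SFC, with 886 against 1016 for HF and 1207 for Control.

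**Figure D4:**
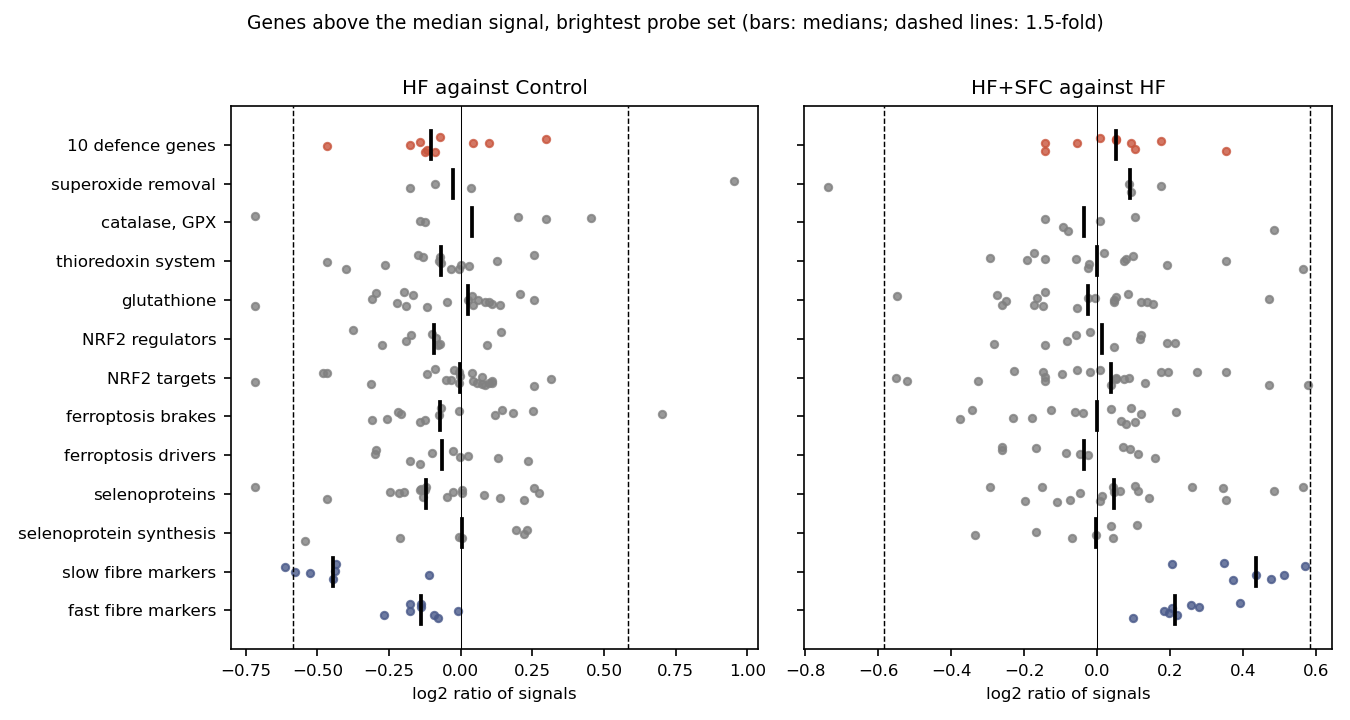
Log2 ratio of signals (horizontal) for genes above the gene median signal, brightest probe set, by list (rows), with 1 point per gene, a bar at the median and dashed lines at 1.5-fold; some genes are in several lists. The 10 defence genes and the pathway lists scatter about 0, whereas all slow and fast fibre markers lie below 0 for HF against Control and above 0 for HF+SFC against HF.

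The genes whose pattern was most like that of a member were found by the distance over the pair of log2 ratios, HF to Control and HF+SFC to HF, among the 4548 genes above the 75th percentile. Nearest to Txnrd1 were Bnip1, Glo1 and Sympk (distances 0.02 to 0.03 on the log2 scale), with Glo1 at 6112 for HF+SFC, 4689 for HF and 6477 for Control. Nearest to Cat were Ell2, Itgb1bp2 and Lgr4, and nearest to Nfe2l2 were Armt1, 2310057M21Rik and Ssb, none of them farther than 0.02. With 3 arrays a pattern is only a pair of numbers, so that many genes lie close by.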

How the data were processed

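Gastrocnemius muscle of 3 diet groups was measured on Affymetrix mouse GeneChip arrays, 1 pooled sample per group. The deposited values are linear MAS5 intensities (the submitters' processing notes give no version), used without detection calls. Gene symbols came from the platform annotation and were brought up to date by gene ID with a RefSeq table (GRCm38.p6), from which no gene coordinates were taken. The 45101 probe sets comprised 64 controls, 34945 with a single symbol, 932 with several and 9160 without one, and 34754 matched a RefSeq gene ID. Log2 ratios were differences of log2 deposited intensities, with nothing added before the logarithm, and each of 18193 genes was given by its brightest probe set. A gene was counted past 1.5-fold by that probe set. With 1 array per group no p-value was computed, and precision is limited by the 3 arrays. Prdx1, Prdx5, Prdx6, Ftl1, G6pdx and Por were not analysed here. The members and gene lists were chosen with earlier results of these data known. Named were all members. In each list the highest and lowest ratios and any at 1.5-fold or more were named, among genes above the median signal over genes. So were the 3 genes most like each of the 3 members with the widest span of log2 signal. Fth1, Hmox1, Slc7a11, Col1a1 with the other fibroblast markers, Alox12e and Ptgs2 were named after their values were seen. Probe sets with the suffix a can bind alternative transcripts, s several transcripts, and x can cross-hybridise. Alternatives tried were a 2-fold threshold, a filter on low signals, an offset of 50, centring on the median, quantile normalization, averaging all probe sets of a gene, and removal of those 3 types. The counting steps were tested on simulated data with planted changes, a check of the code and not of the precision of these ratios. Promoter windows were from RefSeq and were searched on both strands. Python 3.11.15, numpy 2.4.6, pandas 2.3.3, scipy 1.17.1 and matplotlib 3.10.9 were used.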

Additional observations from a re-analysis of the deposited data

How the results depend on the processing

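The count of members at 1.5-fold or more was 0 in both directions and all comparisons under every alternative except 1. With the mean of all probe sets, 1 member, Nfe2l2, was at least 1.5-fold lower for HF+SFC than Control (log2 ratio -0.80), since that mean gives its near-background probe set equal weight. The members' median log2 ratio ranged over the alternatives between -0.00 and 0.05 for HF+SFC against HF, between -0.19 and -0.07 for HF against Control, and between -0.16 and 0.01 for HF+SFC against Control. Centring each array on its median gave the lowest medians in the last 2 comparisons and moved the median of all genes to -0.08 in both. The split of members higher and lower moved as given above. With centring it was also 2 and 8 for HF against Control, and 6 and 4 for HF+SFC against HF. Without probe sets open to several transcripts it was 2 and 6 for HF against Control, and 3 and 5 for HF+SFC against Control. Single members moved most with the mean of all probe sets. Txnrd1 then stood at -0.06 for HF against Control and 0.21 for HF+SFC against Control, and Sod1 at 0.51 for HF against Control and -0.38 for HF+SFC against HF. Nfe2l2 stood at -0.45 for HF+SFC against HF and -0.34 for HF against Control. After removal of probe sets open to several transcripts, Gpx4 and Txnrd1 had no value, 8 members were left, and Gclc was -0.23 for HF against Control and -0.24 for HF+SFC against Control. No paired analysis was possible because each group had 1 array.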
